A study of Mus musculus with 6 samples.

Results

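Interferon-stimulated and MHC class I genes were examined in ependymal cells, the multiciliated cells that line the wall of the brain ventricle. The set held 49 of the 47643 genes in the deposited tables. Its members were chosen by gene name, with their levels here and their differences between the groups already known, so the levels and differences given here are a description of a list that was partly selected on them. RNA, which the labels also call cytoplasmic, came from the V-SVZ (ventricular-subventricular zone) of adult mice, from ependymal cells sorted by their GFP 2 days after tamoxifen. The 3 samples called cKO here were from Ccn1cKO mice, in which recombination by tamoxifen removed Ccn1 from ependymal cells and turned on GFP. Ccn1 encodes a secreted protein of the extracellular matrix. The 3 control samples were from Ctrl mice, which had also received tamoxifen, and no group without tamoxifen was analysed here. The sources used here do not give the driver of the recombinase, the strain, the exact age, or whether a sample held 1 animal or pooled animals. The p-values therefore measure the spread between these samples, which may be technical.

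Type I interferons bind a receptor made of Ifnar1 and Ifnar2, which carry the kinases Tyk2 and Jak1. The kinases phosphorylate STAT transcription factors such as Stat2, which join Irf9 in a complex that binds a DNA element, the interferon-stimulated response element, before many antiviral genes. MHC class I molecules, made of a heavy chain such as H2-K1 or H2-D1 and the light chain B2m, carry peptides from inside the cell to its surface, and interferon raises their level in many cell types.

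The libraries held 13401499 to 15689579 estimated counts each, and Ccn1 was lower in each cKO library (11.6 to 23.7 TPM) than in each control library (63.6 to 98.7 TPM). TPM is an abundance scaled for transcript length and library total, and it is used here wherever genes are compared with each other. Ependymal markers stood at 24256 to 25162 TPM in the cKO and 23805 to 27263 TPM in the control, summed over 10 genes of which Rarres2 and Tmem212 were the most abundant (exact two-sided permutation p = 1, where 3 against 3 cannot go below 0.1).

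In control ependymal cells a small part of the set was abundant, and the rest ranged from moderate levels to 0. Of the 49 genes, 5 had a control mean of at least 100 TPM, 18 lay between 10 and 100 TPM, 14 between 1 and 10 TPM, and 12 under 1 TPM. For scale, Tap2 at 10.3 TPM lay above 65.1% of the genes with a control mean above 0. Ifitm3, a membrane protein that blocks the entry of enveloped viruses, led the set at 2899 ± 303 TPM (SD, n = 3) and was 29th among the 17287 genes with a control mean above 0. Ifi27, an interferon-induced mitochondrial and nuclear-envelope protein gene, followed at 542 ± 60.2 TPM (rank 271), then Ifitm2 at 210 ± 67.5 TPM, Ifit3 at 127 ± 25.7 TPM and H2-D1 at 124 ± 43.6 TPM. Dhx58, Zbp1, Oasl1 and Ifi44 were listed at 0 in all 6 libraries, and 24 of the 49 genes had more than 3 counts in every library. Many low genes were present in some libraries of a group and absent from others. The filter on low counts kept 37 of the 49 genes and 11574 genes in all. In 13 of the 37 (35.1%) some library nevertheless had no more than 3 counts, against 36.9% of the 11574.

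**Figure D1:**
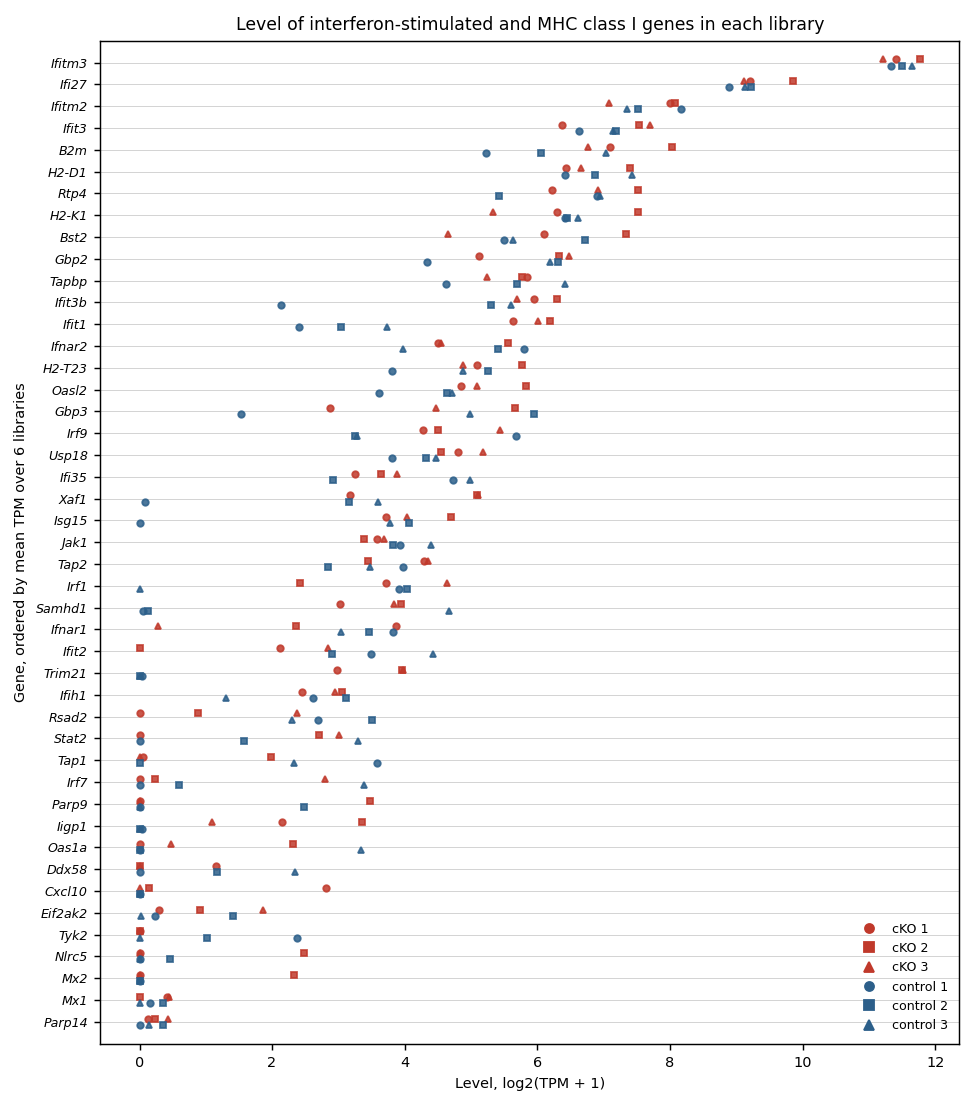
Level of the 45 genes with a value above 0 in any library, as log2(TPM + 1) on the horizontal axis, with each gene in a row ordered by its mean over 6 libraries. Red symbols are the 3 cKO libraries and blue symbols the 3 control libraries. Ifitm3 and Ifi27 stand apart at the top, the Ifit1 groups are separate, and the lower rows have libraries at 0 beside libraries with a value.

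The receptor and its kinases were detected at moderate levels, except for Tyk2. Ifnar2, the ligand-binding chain, stood at 21.7, 46.0 and 22.4 TPM in cKO 1, 2 and 3 and at 54.8, 41.6 and 14.6 TPM in control 1, 2 and 3. Ifnar1, the signalling chain, ranged from 0.219 to 13.6 TPM in the cKO and from 7.19 to 13.2 TPM in the control. The groups overlapped for both chains. Jak1 stood at 11.0, 9.49 and 11.8 TPM in the cKO and at 14.2, 13.2 and 20.1 TPM in the control, and all 3 cKO libraries lay below all 3 controls. The log2 difference of Jak1, cKO minus control, was -0.55 ± 0.38 (SE, edgeR quasi-likelihood fit). Tyk2 was listed at 0 in all 3 cKO libraries and in control 3, with 273 counts in control 1 and 53 in control 2, and did not reach the tested level.

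The transcription factors that carry the signal had overlapping groups or were too low to be tested. Irf9, the DNA-binding partner of Stat2, stood at 18.4, 21.6 and 42.4 TPM in the cKO and at 50.4, 8.49 and 8.69 TPM in the control. Control 1 was the highest library of all 6 and the other two controls were the lowest, so the groups overlapped. Irf1, an early interferon-induced factor, ranged from 4.37 to 23.97 TPM in the cKO and was 14.1, 15.4 and 0 TPM in control 1, 2 and 3. Stat2 was at 0 counts in cKO 1 and control 1 and between 1.97 and 8.87 TPM in the other libraries. Irf7, the factor that amplifies type I interferon production, and Nlrc5, the activator of MHC class I genes, did not reach the tested level, and Nlrc5 had 120 counts in cKO 2, 30 in control 2 and 0 elsewhere.

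The sensors of viral nucleic acid were low. Ifih1, which encodes the RNA sensor MDA5, was detected in every library, at 4.44 to 7.32 TPM in the cKO and 1.47 to 7.65 TPM in the control. Ddx58, which encodes RIG-I, reached at most 4.06 TPM (control 3) and was at 0 in 3 libraries. Eif2ak2, the RNA-activated kinase PKR, lay between 0.0182 and 2.64 TPM. None of these had separate groups.

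The IFIT genes, whose proteins bind viral RNA, lie near each other on chromosome 19 and are given one by one. Ifit1 stood at 48.8, 72.1 and 63.2 TPM in the cKO and at 4.28, 7.23 and 12.3 TPM in the control. The lowest cKO library was therefore well above the highest control. The group means were 61.4 ± 11.8 and 7.92 ± 4.03 TPM (SD, n = 3 each), the estimated counts ran from 1464 to 2027 in the cKO and from 153 to 398 in the control, and the log2 difference was 2.98 ± 0.44 (SE), which is 7.87-fold. Ifit3b stood at 60.7, 77.5 and 51.0 TPM against 3.40, 38.5 and 47.4 TPM. Its groups were separate by a narrow margin, with control 1 far below the rest, and its log2 difference was 1.13 ± 0.76 (0.62 without control 1). Ifit3 stood at 81.6, 184 and 206 TPM against 97.8, 144 and 140 TPM. The Ifit3 groups overlapped, with cKO 1 the lowest library of all, and the log2 difference was 0.32 ± 0.35 (0.038 without cKO 3). Ifit2 went the other way in TPM, at 3.36, 0 and 6.19 TPM in the cKO and 10.3, 6.48 and 20.4 TPM in the control. Its log2 difference was -1.92 ± 1.59. In CPM, counts scaled to the library size but not for transcript length, its groups overlapped narrowly (20.4 in cKO 3 against 19.9 in control 2).

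Within each library the ratio of Ifit1 to Ifit3, which does not depend on library size, was 0.598, 0.391 and 0.307 in the cKO and 0.0438, 0.0501 and 0.0875 in the control. The lowest cKO ratio was thus above the highest control ratio. Ifit1 (ENSMUSG00000034459.8) spans 34640871 to 34650009 on chromosome 19, Ifit3b 34607970 to 34613401, Ifit3 34583531 to 34588731 and Ifit2 34550694 to 34576419, all on the plus strand of GRCm38 in GENCODE M21. The reads of Ifit3 and Ifit3b are hard to tell apart. Of the words of 31 bases in Ifit3 transcripts, 61.8% also occur in Ifit3b, so the split of counts between these 2 genes is an estimate. Their sum was 142, 262 and 257 TPM in the cKO and 101, 183 and 187 TPM in the control. It depends on that split only through the different lengths of the 2 transcripts, for which TPM is scaled. Ifit1 shared 10.8% of its words with other genes, mostly Ifit1bl2 at 9.16%, and Ifit2 shared 0%.

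The stretches before the start sites of these genes are shown because they carry the letters of the interferon-stimulated response element in genes with large and with small differences between the groups. They are RefSeq sequences of GRCm38.p6, written 5′ to 3′ on the gene's strand, and capitals mark GAAANNGAA, the core letters of that element, on either strand. Each stretch runs 15 bases beyond the outermost match. It lies at chr19:34640765-34640828 (plus strand) for Ifit1, at chr19:34583359-34583450 (plus) for Ifit3, at chr19:34607755-34607846 (plus) for Ifit3b, at chr4:156200861-156200911 (minus) for Isg15, at chr7:140955984-140956022 (minus) for Ifitm2 and at chr2:122147533-122147571 (plus) for B2m.
Ifit1: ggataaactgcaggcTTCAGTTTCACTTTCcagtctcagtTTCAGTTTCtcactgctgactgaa
Ifit3: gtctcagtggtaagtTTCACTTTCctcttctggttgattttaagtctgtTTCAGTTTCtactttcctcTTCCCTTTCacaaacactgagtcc
Ifit3b: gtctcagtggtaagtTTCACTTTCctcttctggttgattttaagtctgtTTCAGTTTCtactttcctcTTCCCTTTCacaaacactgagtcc
Isg15: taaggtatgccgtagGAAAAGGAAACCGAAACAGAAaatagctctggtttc
Ifitm2: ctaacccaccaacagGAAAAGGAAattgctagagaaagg
B2m: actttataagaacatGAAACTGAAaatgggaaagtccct

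Ifit1 had 3 matches, starting at positions -109, -103 and -84 from the start site. Ifit3 had 3, at -155, -121 and -102, and Ifit3b 3, at -187, -153 and -134, and the printed stretches of Ifit3 and Ifit3b differed at 0 bases. Ifit1 and Ifit3b, whose groups were separate, and Ifit3, whose groups overlapped, thus had the same number of matches. Isg15 had 3 matches (-78, -72 and -66), B2m 1 (-139) and Ifitm2 1 (-46), while the matches of Trim21 (14 and 20) and Ifitm3 (3 and 20) began after the start site. Both windows listed for Ifit2 held none. Promoter windows of 300 bases, from 250 before to 50 after the start, were at hand for 37 of the 49 genes, and 20 of the 37 (54.1%) had at least 1 match in some window. Among all 27025 genes with such windows the share was 9.76%, and among 87 other genes of interferon signalling and antigen presentation it was 40.2%. TTCNNNGAA, the letters of the interferon-gamma activated site, which reads the same on both strands and can share its TTC or GAA with the other motif, occurred in 27.0% of the 37 genes, 25.3% of the 87 and 9.55% of all genes. A match is a stretch of letters, and binding was not measured.

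**Figure D2:**
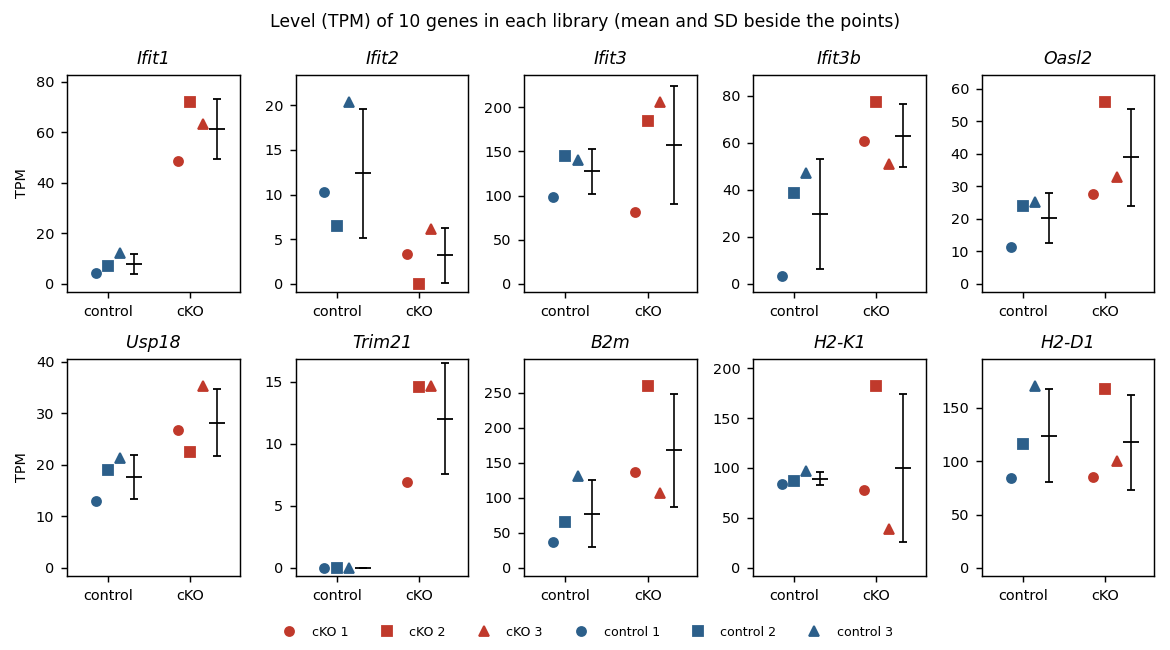
TPM of 10 genes in each library, with controls in blue on the left of each panel and cKO in red on the right, and the mean with its SD (n = 3) beside the points. Ifit1 and Trim21 have widely separate groups, Ifit3b, Oasl2 and Usp18 have groups separated by a small gap, and B2m, H2-K1 and H2-D1 overlap, with cKO 2 the highest cKO library in each of the last 3.

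The OAS-like gene Oasl2 stood at 27.7, 56.0 and 33.0 TPM in the cKO and at 11.3, 24.01 and 25.3 TPM in the control. The groups were separate by little more than 2 TPM, and the log2 difference was 0.96 ± 0.41 (0.64 without cKO 2). Oas1a, an enzyme that makes the activator of RNase L, did not reach the tested level, and 68.8% of its words of 31 bases also occur in other genes, nearly all in Oas1g.

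Among the other antiviral genes, Trim21 and Iigp1 had almost no counts in the control. Trim21, a ubiquitin ligase that is also a cytosolic antibody receptor, stood at 6.89, 14.6 and 14.7 TPM in the cKO and at 0.0274, 0 and 0 TPM in the control. The counts were 217, 429 and 465 against 1, 0 and 0, a ratio of 1216 with a 95% exact interval from 218 to 48083, which covers counting error only. Trim21 (ENSMUSG00000030966.12) lies on the minus strand of chromosome 7 from 102557921 to 102565486, and 1.94% of its words are shared with other genes. Iigp1, an interferon-inducible GTPase gene on chromosome 18, had 123, 311 and 38 counts in the cKO and 1, 0 and 0 in the control (ratio 517, 95% exact interval 92.3 to 20452). Of all tested genes 0.579% had more than 3 counts in all 3 cKO libraries and 3 or fewer in all 3 controls, and 0.302% the reverse. Of the 37 tested members 2 showed the first pattern, Trim21 and Iigp1, and 0 the second. Both passed the filter on low counts only through the cKO libraries in which they were high, so nothing is read from that count. Presence and absence also divided libraries of 1 group. Samhd1, a restriction factor that depletes nucleotides, had 2, 2 and 612 counts in the 3 controls and 169 to 306 in the cKO.

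The abundant antiviral genes had small differences between the groups, most of them below or near their standard error. Ifitm3 stood at 2711, 3506 and 2373 TPM in the cKO and 2592, 2906 and 3198 TPM in the control, a log2 difference of -0.03 ± 0.15, the most precise of the set. Ifitm2 stood at 255, 268 and 135 TPM against 287, 182 and 162 TPM. Both had overlapping groups, and 55.5% of the words of Ifitm2 occur in other genes, 38.1% in the gene model Gm45717. Ifi27 stood at 589, 926 and 551 TPM against 476, 593 and 557 TPM, groups that overlapped in TPM and were just separate in CPM, counts scaled to the library size (350 to 551 CPM against 319 to 348 CPM), with a log2 difference of 0.35 ± 0.21 that was 0.11 without cKO 2. Rtp4, a chaperone of cell-surface receptors with antiviral activity, stood at 73.4, 182 and 119 TPM against 118, 42.0 and 122 TPM. Bst2, which encodes tetherin, stood at 67.8, 160 and 24.2 TPM against 44.4, 104 and 48.4 TPM. The log2 differences of these 2 were 0.37 ± 0.49 and 0.35 ± 0.77, the Rtp4 value was 0.036 without cKO 2 and 0.0044 without control 2, and the Bst2 value was -0.47 without cKO 2. Xaf1, a pro-apoptotic gene, stood at 8.02, 33.0 and 33.4 TPM against 0.0580, 7.97 and 11.1 TPM (1.87 ± 1.36), with cKO 1 inside the control range. Rsad2, which encodes viperin, reached 10.4 TPM in control 2 and was at 0 in cKO 1, and Ifi35 ranged from 8.53 to 13.7 TPM in the cKO and 6.54 to 30.8 TPM in the control. Mx1 stayed at or under 11 counts in every library, and Mx2 had 102 counts in cKO 2 and 0 elsewhere.

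The genes of the guanylate-binding proteins Gbp2 and Gbp3 had overlapping groups with a wide spread in each. Gbp2 stood at 33.9, 78.8 and 87.8 TPM in the cKO and at 19.3, 78.7 and 71.7 TPM in the control, and Gbp3 at 6.33, 49.6 and 21.3 TPM against 1.88, 60.7 and 30.7 TPM. Control 1 was the lowest and cKO 1 the next lowest library for both genes. Isg15, a ubiquitin-like modifier, had 74, 140 and 94 counts in the cKO and 0, 89 and 84 in the control. Usp18, the protease that removes it, stood at 26.8, 22.5 and 35.3 TPM against 12.96, 19.0 and 21.2 TPM. The Usp18 groups were separate by a gap smaller than their own SD, with a log2 difference of 0.69 ± 0.56. Parp14 lay under 1 TPM throughout, Parp9 had counts in cKO 2 and control 2 only, and the chemokine gene Cxcl10 had 62 counts in cKO 1, 1 in cKO 2 and 0 elsewhere.

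Transcripts for MHC class I chains were present in every library, and the largest values of the light chain and of H2-K1 came from 1 cKO library. B2m stood at 136, 260 and 107 TPM in the cKO and at 36.6, 65.6 and 131 TPM in the control, a log2 difference of 1.12 ± 0.54 (0.70 without cKO 2 and 1.69 without control 3). Control 3 lay above cKO 3, so the groups overlapped. H2-K1, a classical heavy chain, stood at 77.6, 182 and 39.2 TPM against 84.3, 86.5 and 96.6 TPM. The cKO libraries were both the highest and the lowest of the 6, and the log2 difference of 0.14 ± 0.49 was -0.59 without cKO 2. H2-D1, the other classical heavy chain in the set, stood at 84.9, 168 and 100 TPM against 84.3, 116 and 171 TPM (log2 difference -0.06 ± 0.32). H2-T23, which encodes the nonclassical Qa-1, ranged from 28.5 to 53.3 TPM in the cKO and 12.99 to 37.1 TPM in the control. The share of words that occur in other genes was 22.8% for H2-K1, 26.9% for H2-D1 and 25.8% for H2-T23, and 0% for B2m, so the heavy chains are uncertain in a way that B2m is not. Of the genes that load peptides, Tapbp, which encodes tapasin, stood at 36.99 to 56.2 TPM in the cKO and 23.7 to 84.5 TPM in the control. Tap2 stood at 9.85 to 19.4 and 6.21 to 14.6 TPM. Tap1, its partner in the peptide transporter, had 1, 93 and 0 counts against 442, 0 and 147.

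The comparison of cKO with control asked whether the set differed between the groups, with and without Ifit1. More of the tested members were higher in the cKO than lower, and none passed the test over all genes. Of the 37 tested, 25 (67.6%) had a log2 difference above 0, against 50.3% of all 11574 genes tested. Their median log2 difference was 0.35, and it was 0.33 over the 36 members left without Ifit1, against 0.0044 over all genes tested. The edgeR quasi-likelihood test called 0 of 37 members at a Benjamini-Hochberg adjusted p of 0.05, as it called 0% of all genes, and the edgeR adjusted p of Ifit1 was 0.936. At an unadjusted p of 0.05 there were 4 members (Ifit1, Trim21, Iigp1 and Oasl2), 10.8% of those tested against 2.75% of all genes. limma-voom called 0 members and 0% of all genes. DESeq2 called 3 members, Ifit1, Trim21 and Iigp1, which is 8.11% against 1.69% of the genes it gave an adjusted p (2.75e-08 for Ifit1, adjusted p by DESeq2). These differences were known when the set was drawn up, so the shares are not independent evidence about it. Trim21 and Iigp1 each had 1, 0 and 0 counts in the control and owed their level to the cKO libraries. Nothing is read from their part in these shares, in the 25 members that were higher or in the medians.

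All 3 cKO libraries lay above all 3 controls in CPM for 7 of the 37 members (18.9%, against 4.99% of all genes tested): Ifit1, Ifit3b, Oasl2, Usp18, Ifi27, Trim21 and Iigp1. They lay below for 1, Jak1 (2.70%, against 4.62%). Trim21 and Iigp1 passed the filter on low counts only through the cKO libraries in which they were high. Nothing is read from their part in the 7. Without cKO 2 and control 1, 2 libraries of each group are left, and the shares were 24.3% against 16.8% of all genes above and 13.5% against 17.1% below. By role, 4 of 5 tested IFIT and OAS genes, 7 of 10 other antiviral genes and 4 of 7 MHC class I genes were higher in the cKO. So were 3 of 3 genes of the group of Isg15, 3 of 3 transcription factors, 2 of 3 sensors and 2 of 3 interferon-inducible GTPases. The 3 of 3 receptor and kinase genes were lower. These counts are small, and 50.3% of all genes tested were higher. Nothing is read from the part of Trim21 and Iigp1 in them. The median depended on which libraries were used. It was 0.18 without cKO 2, 0.088 without cKO 3, 0.22 without control 1 and 0.51 without cKO 1, and without cKO 2 and control 1 together it was 0.043, with 19 of 37 members higher. The Ifit1 value lay between 2.72 and 3.40 without any 1 library.

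**Figure D3:**
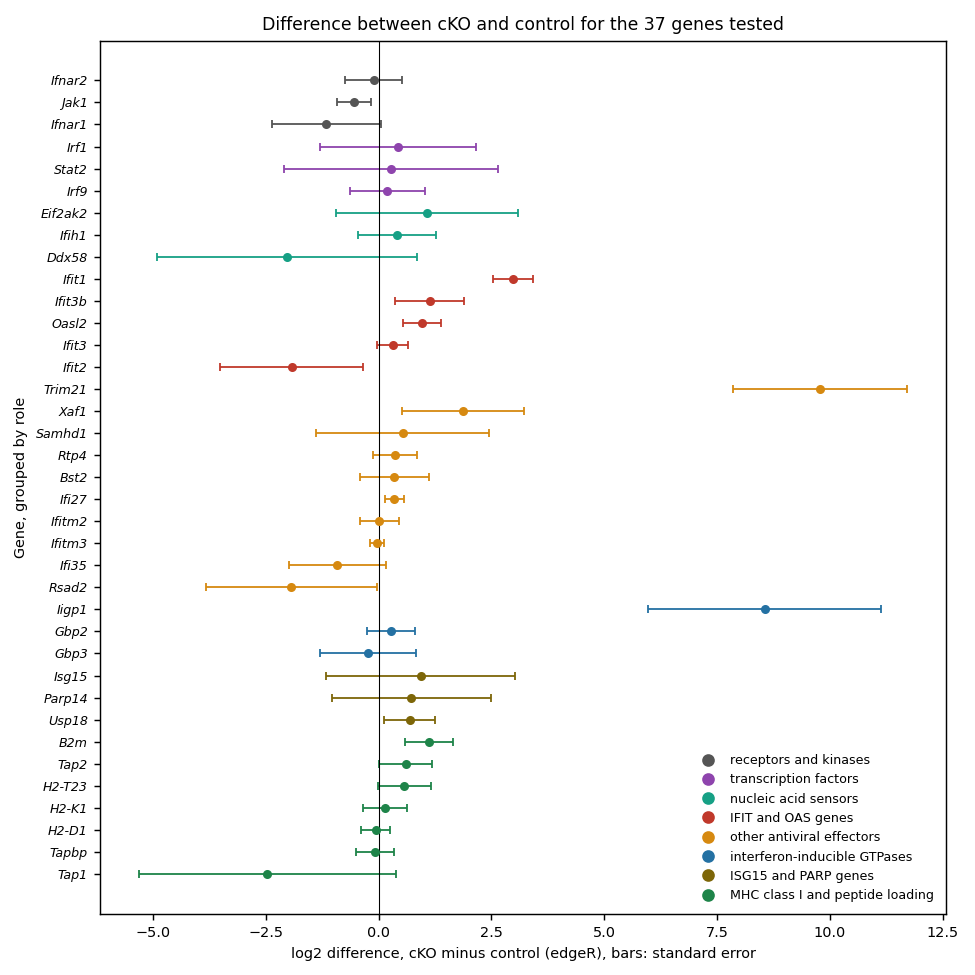
Difference between cKO and control for each of the 37 tested genes, as log2 of the ratio with its standard error on the horizontal axis, grouped and coloured by role. Ifit1 at 2.98, Trim21 at 9.78 and Iigp1 at 8.55 lie farthest to the right, the last 2 with control counts near 0 so that their fitted size is not a bound, and most other bars cross 0.

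Across the 6 libraries cKO 2 was most often the highest library of a member, and control 1 most often the lowest. Of the 25 members that averaged at least 10 TPM, 11 (44%) had their highest value in cKO 2, against 15.9% of all 6092 genes at that level, and 13 (52%) had their lowest in control 1, against 26.9%. The library cKO 1 was the highest for 0 of the 25, cKO 3 for 6, control 1 for 3, control 2 for 1 and control 3 for 4. The median standardized level of the 25 genes was 0.84 SD in cKO 2 and -0.99 SD in control 1, where the medians of all genes were 0.22 and -0.11. The other 4 libraries lay between -0.090 and 0.13 SD. Those highest in cKO 2 included B2m, H2-K1, H2-T23, Bst2, Ifi27, Ifitm3, Rtp4, Oasl2, Isg15, Ifit1 and Ifit3b, and thus MHC genes as well as antiviral effectors.

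The mean Pearson correlation over the 300 pairs of these 25 genes, on log2(TPM + 1) over 6 libraries, was 0.17, against 0.015 over all pairs of genes at that level. All pairs share the same 6 libraries and their depth, and the values are a description. After each group's mean was removed it was 0.16, against 0.018. Without cKO 2 and control 1 together, this value within groups was 0.0039, against 0.0015 over all pairs of genes at that level. For correlations with Ifit1 over the 6 libraries the group means were left in. The highest were those of Oasl2 (r = 0.85), Usp18 (0.84), B2m (0.83), Xaf1 (0.81) and Ifit3b (0.75). The Ifit1 groups were widely separate, so this order in part restates which members were higher in the cKO. With the group means left in, the mean over the 300 pairs was 0.077 without cKO 2, and without cKO 2 and control 1 together it was -0.034. Control 1 had the fewest genes with a count (12460, against 13024 to 14530 elsewhere), and cKO 2 the most. The part of this in the order of the libraries was not tested.

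**Figure D4:**
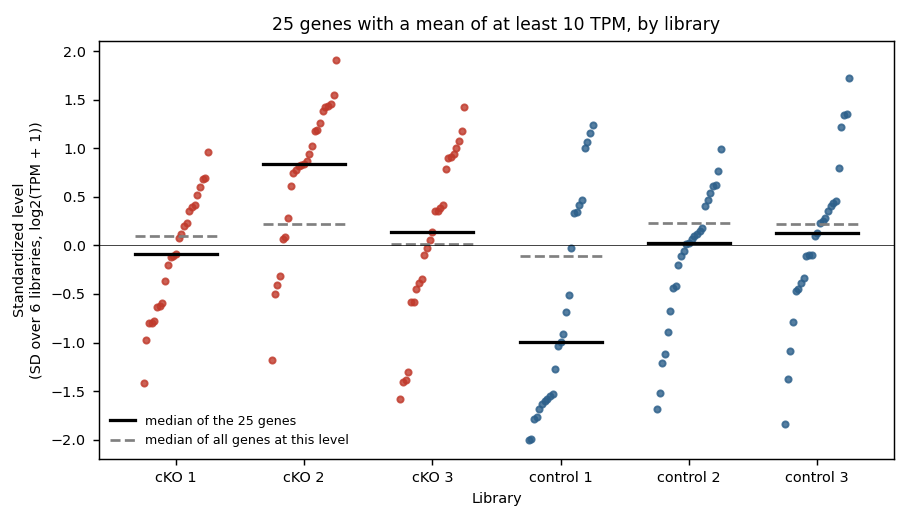
Standardized level in each library of the 25 genes that averaged at least 10 TPM, in SD over the 6 libraries of log2(TPM + 1). Points are genes, black lines their median and dashed grey lines the median of all 6092 genes at that level. The black line is highest in cKO 2 (0.84) and lowest in control 1 (-0.99).

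Markers of other cell types that can express these genes were summed in each library. Of 10 endothelial markers, 8, among them Cldn5, Pecam1 and Cdh5, were at 0 in all libraries. The list, led by Slco1a4 and Flt1, summed to 0.402, 3.83 and 0 TPM in the cKO and 0 to 0.0141 TPM in the control. Of 11 lymphocyte and granulocyte markers, 7 were at 0 throughout. That list, led by Cd3d and Cd3e, summed to at most 0.0560 TPM in the cKO and 0.181 TPM in the control. The 9 microglial markers summed, led by C1qb and Ctss, were each detected in some library and came to 62.0, 73.0 and 31.1 TPM in the cKO and 59.0, 76.9 and 86.2 TPM in the control. This sum is over an incomplete list (exact permutation p = 0.3), and no difference between the groups is read from it. Mural and fibroblast markers, 4 of 10 at 0 throughout, summed to 3.81 to 5.78 TPM against 1.68 to 2.66 TPM. These groups were separate, with an exact permutation p of 0.1, which is the floor of the test. Col1a2 alone stood at 3.77, 4.18 and 3.62 TPM in the cKO and at 2.14, 1.65 and 2.62 TPM in the control. Pdgfrb added 2.09 TPM in cKO 3, while 8 of the 10 markers had at most 3 counts in every library. The separation was thus mainly that of Col1a2, and no difference in a cell type is read from it. Choroid plexus markers, led by Folr1 and Ttr and with Aqp1 and Slc4a5 at 0, summed to 783, 952 and 326 TPM in the cKO and 540, 615 and 742 TPM in the control. Their sum was highest in cKO 2 and lowest in cKO 3, but the markers differed in their order. Ttr stood at 290, 520 and 0.251 TPM in the cKO and at 5.29, 147 and 148 TPM in the control. Folr1 stood at 421, 375 and 297 TPM against 515, 412 and 558 TPM. Astrocyte and stem cell markers, led by Aldoc and Gja1, summed to 1954 to 2385 TPM against 1991 to 3206 TPM. Oligodendrocyte markers, led by Cnp and Mbp, came to 212 to 239 TPM against 99.9 to 328 TPM. Neuron markers, led by Tubb3 and Stmn2, came to 1.71 to 12.9 TPM against 2.26 to 25.3 TPM. Apart from the ependymal and the mural and fibroblast lists, the exact permutation p of each list lay between 0.3 and 0.9. The part of these cells in the members' levels was not tested. In sorted bulk samples a change in the number of cells of a type and a change in RNA per cell cannot be told apart.

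Other genes of the same pathways were taken from lists drawn up with results known. Of 108 such genes 50 were tested, 28 (56%, against 50.3% of all genes tested) were higher and 22 lower in the cKO, and the median log2 difference was 0.11. edgeR called 0, with 3 (6%, against 2.75% of all genes) at an unadjusted p of 0.05, and DESeq2 called 0 as well. Of 21 interferon genes 18 were listed at 0 throughout. Ifng had 10.2, 0 and 7.71 TPM in the cKO and 0, 0 and 16.1 TPM in the control, and Ifnk and Ifnz stayed at or under 1.13 TPM. Among receptors, kinases and factors 2 were higher and 6 lower, with Ifngr1, the interferon-gamma receptor chain, at 116 to 183 TPM against 113 to 227 TPM. Irf3, which acts upstream of interferon production, stood at 25.4, 24.4 and 7.28 TPM against 38.7, 35.2 and 44.8 TPM, and Jak2 at 4.26, 3.23 and 4.48 TPM against 6.58, 10.4 and 19.98 TPM. Both lay lower in all 3 cKO libraries, and the log2 difference of Jak2 was -1.60 ± 0.60.

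Negative regulators divided evenly, with 4 higher and 4 lower, and among them Tsc22d3 stood at 141 to 395 TPM against 135 to 305 TPM and Ptpn2, a phosphatase that acts on JAK kinases, at 62.1 to 69.3 TPM against 22.4 to 76.0 TPM. Socs3, a cytokine-induced inhibitor of JAK kinases, reached at most 5.64 TPM. Of 5 tested adaptors of nucleic acid sensing 4 were higher and 1 lower, with Mavs at 5.97 to 9.22 TPM against 1.89 to 9.59 TPM and the kinase Tbk1 at 5.21 to 14.1 TPM against 0.0242 to 20.9 TPM. Trim25, a ubiquitin ligase of the RIG-I pathway, stood at 4.46, 0.0162 and 0.254 TPM against 0.208, 0.0319 and 0 TPM, with the highest value in cKO 1. Of 21 tested interferon-induced genes outside the set, 12 were higher and 9 lower, with a median log2 difference of 0.055. Psme2 and Psme1, subunits of a proteasome activator, led them at 256 to 359 and 116 to 179 TPM in the cKO and at 219 to 434 and 126 to 165 TPM in the control. Gbp7 stood at 1.77, 11.6 and 30.9 TPM against 0.0300, 2.42 and 1.91 TPM, overlapping groups with a log2 difference of 3.49 ± 1.47 that was 2.20 without cKO 3. Pml, the organizer of PML nuclear bodies, stood at 0.156, 0.125 and 0 TPM against 3.85, 0.357 and 1.55 TPM, lower in all 3 cKO libraries. Of the 7 tested genes of other MHC class I chains and peptide loading, 5 were higher, among them Calr, the chaperone calreticulin, at 145, 124 and 102 TPM against 41.6, 85.7 and 87.6 TPM (0.81 ± 0.29), while Pdia3 and Canx had overlapping groups. Of 6 MHC class II genes, 5, including Cd74 and H2-Ab1, were at 0 in every library. H2-DMa had 63 counts in cKO 1, 23 in control 3 and 0 elsewhere.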

How the data were processed

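Groups and replicate numbers come from the titles of the 6 samples. CASAVA 1.8, cutadapt 1.11 and kallisto 0.42.5 are listed in the submitters' processing notes. kallisto matches reads to transcripts and divides ambiguous reads among them. The sources used here name no genome build or annotation. Per the file headers, the authors deposited an estimated count, not normalized, and a TPM value for each of 47643 genes. Here the estimated counts were rounded, filtered by filterByExpr (11574 genes kept), scaled by TMM and tested across all genes by the quasi-likelihood test of edgeR 4.0.16 (robust, genotype only, R 4.3.3), with Benjamini-Hochberg adjustment and a threshold of 0.05. Marker sums were compared with exact permutation tests. Coordinates are from GENCODE M21 on GRCm38, which held 99.1% of the deposited identifiers. Promoters are from RefSeq on GRCm38.p6. Read sharing was the share of the 31-base words in a gene's GENCODE transcripts that another gene's transcripts also hold, and the authors' annotation may differ.

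The members and lists were chosen with earlier results of these data known. By a rule, every library's value is given for Ifit1, the 10 members highest in mean TPM, the 10 with the smallest edgeR p, and those whose groups were separate at a mean of 5 TPM or more. Of each other pathway list, the 2 most abundant genes and the 2 with the smallest edgeR p are named, and of each marker list the 2 most abundant. Of the 10 listed microglial markers 1 is not reported here, so 9 were summed. Further genes were named after their values were seen. Alternatives were DESeq2 1.42.0, its size factors, total counts, other filters, limma-voom and limma (3.58.1) on log2(TPM + 1) and log2(TPM + 0.1), a replicate block, and fits lacking 1 library with the same genes kept. Chosen after seeing the data were a filter at a mean of 50 CPM, a newer quasi-likelihood method, and leaving out cKO 2 with control 1. The fits were tested on simulated data. Libraries held 13401499 to 15689579 counts, and the common dispersion was 1.28. Intervals cover counting error only.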

Additional observations from a re-analysis of the deposited data

How the results depend on the processing

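The count of members called was 0 with edgeR, limma-voom and limma on TPM, with every library left out (0 to 0) and with the replicate block. It was 3 with DESeq2 (Ifit1, Trim21 and Iigp1, with 200 genes called in all) and 1, Ifit1, with a mean of at least 50 CPM by either quasi-likelihood method (2 genes in all). Ifit1 stood at 2.97 in each of these settings (2.96 with the newer method), past the threshold there, and kept its direction in 19 of 19 alternatives (2.61 to 3.40), while without 1 library it ran from 2.72 to 3.40. Above 50 CPM 16 members were left and 11 were higher in the cKO. Leaving out 1 library gave 22 to 27 members higher, medians of 0.088 to 0.51 (0.077 to 0.50 without Ifit1) and a mean correlation of 0.077 to 0.22. Without cKO 2 and control 1 together the medians were 0.043 and 0.019 and the correlation -0.034, and with a cutoff of 5 TPM the correlation was 0.12. With the replicate block the median was 0.43 and Ifit1 stood at 3.06, with 0 genes called. Same-numbered samples deviated together only weakly (correlations of 0.00800 to 0.0312), so the numbers were not treated as pairs. Every sample correlated best with its own number, but for cKO 1 the value was 0.00800 with control 1 and 0.00700 with control 3. The design names no pairs, and none are read from these values. Of 384 values for 21 named genes, 365 kept their direction. H2-K1 turned to -0.13 with limma-voom, -0.11 on both TPM scales, and -0.12 with the replicate block. Leaving out 1 library turned H2-K1 (-0.59 to 0.50, negative without cKO 2), Bst2 (-0.47 to 0.79, negative without cKO 2), Gbp2 (-0.098 to 0.60, negative without control 1), H2-D1 (-0.38 to 0.21, positive without cKO 1, cKO 3 or control 3), Ifitm2 (-0.17 to 0.40, negative without cKO 1, cKO 2, control 2 or control 3) and Ifitm3 (-0.16 to 0.067, positive without cKO 3 or control 3), and leaving out cKO 2 with control 1 turned H2-K1 (-0.57), Bst2 (-0.64) and Gbp2 (-0.22). The cause was not tested. Genes at 3 counts or fewer in a library limit what these depths can show.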
